A study of Mus musculus with 4 samples.

Results

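The genes described here are 38 mouse genes for soluble lysosomal hydrolases, lumenal cofactors, lysosomal membrane proteins and receptors that sort hydrolases. They were taken by symbol from a table of 49568 gene symbols, and all 38 were found. Migrasomes are vesicles that form on the retraction fibres behind a migrating cell. RNA labelled as migrasome was sequenced in 2 libraries, against 2 libraries labelled as cytosol. The labels give no genotype, treatment or cell type for either group, and do not say how the fractions were prepared or whether the libraries came from separate cultures. The p-values therefore speak of the scatter of these 4 libraries alone, and that scatter may be technical. The migrasome libraries held 5228713 and 5171092 reads in genes and the cytosol libraries 7529136 and 8608369.

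A lysosomal hydrolase is made on ribosomes at the endoplasmic reticulum (ER), where a hydrophobic signal sequence at the start of the protein directs the growing chain across the membrane. In the Golgi most hydrolases receive mannose 6-phosphate, which the receptors encoded by M6pr and Igf2r bind, and the receptors carry them to endosomes and return. Lysosomal membrane proteins such as those of Lamp1 and Lamp2 are also inserted at the ER, and many genes of this group are targets of the transcription factor TFEB.

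Of the 38 genes, 31 were lower in migrasome than in cytosol, 0 were higher by limma, 2 did not pass the test and 5 had too few reads to be tested. The median of the 33 tested differences, migrasome minus cytosol, was -1.80 on the log2 scale, a level 3.48-fold lower in migrasome. Of the 33 tested genes 0 were higher at an unadjusted p under 0.05, and 0 by edgeR or DESeq2 on the recovered reads. Genes for cathepsins, glycosidases, lipid enzymes, membrane proteins and mannose 6-phosphate receptors are all among the 31. Ids, a sulfatase, and Fuca1, a fucosidase, were the 2 tested genes that did not pass, and Npc2, a cholesterol-binding protein, fell least among those that did. Over all 10860 tested genes 17.7% were called lower and 8.68% higher, with a median difference of -0.0043. In 31 of the 33 both migrasome values were below both cytosol values, which held for 36.3% of all tested genes.

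A gene was tested with limma on log2(value + 1) of the deposited normalised read counts when 2 or more of the 4 libraries had a value of 10 or higher, and counted as called at a Benjamini-Hochberg adjusted p under 0.05 over all tested genes. Of the 33 tested genes 32 reached 10 in all 4 libraries, so they did not enter through the cytosol libraries alone, and Manba was the exception. With no filter on low values all 38 were tested and 31 were again called lower. The number of all tested genes called, 2862, changed with the library left out. A refit without 1 library leaves 1 library in a group, so its error rests on the scatter of the other pair. A call kept or gained in such a refit is therefore no check of the reported call. In bulk libraries such as these, a lower level in every vesicle and fewer vesicles that hold an mRNA cannot be told apart, and each value is relative to the other RNA of its library.

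The proteins of these genes enter the ER through a hydrophobic stretch, which in most lies at their start. The first 30 codons of 7 genes are given as examples of the results. They are Ctsl, Psap, Lamp1 and M6pr, which fell, Npc2, which fell least, and Fuca1 and Ids, which did not pass. The largest fall, that of Manba, is not among them. Capitals mark the 8 codons whose residues have the highest mean Kyte-Doolittle hydropathy, a scale on which hydrophobic residues score high. The sequences are those of the GENCODE M21 transcripts of the build GRCm38, read 5′ to 3′ on the coding strand.
Ctsl: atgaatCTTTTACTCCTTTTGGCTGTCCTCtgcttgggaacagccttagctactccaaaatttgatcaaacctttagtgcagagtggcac
Psap: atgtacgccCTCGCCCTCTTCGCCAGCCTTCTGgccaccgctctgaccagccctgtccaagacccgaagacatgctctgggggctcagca
Lamp1: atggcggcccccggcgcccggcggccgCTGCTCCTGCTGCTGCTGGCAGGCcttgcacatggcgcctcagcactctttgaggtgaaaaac
M6pr: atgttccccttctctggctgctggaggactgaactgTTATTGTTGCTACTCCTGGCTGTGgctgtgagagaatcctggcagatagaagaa
Npc2: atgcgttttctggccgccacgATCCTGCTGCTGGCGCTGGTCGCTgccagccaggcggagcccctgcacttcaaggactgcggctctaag
Fuca1: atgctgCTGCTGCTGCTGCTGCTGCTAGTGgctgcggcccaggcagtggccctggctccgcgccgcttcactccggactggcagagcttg
Ids: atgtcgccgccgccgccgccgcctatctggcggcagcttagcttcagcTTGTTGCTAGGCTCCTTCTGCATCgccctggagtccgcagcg
The start codon of Ctsl begins at 64369153 on chromosome 13 (minus strand), that of Psap at 60277743 on chromosome 10 (plus), that of Lamp1 at 13159389 on chromosome 8 (plus) and that of M6pr at 122312235 on chromosome 6 (plus). Those of Npc2, Fuca1 and Ids begin at 84772867 on chromosome 12 (minus), 135920804 on chromosome 4 (plus) and 70364903 on chromosome X (minus). The mean hydropathy of the capitals was 3.6 in Ctsl, 2.6 in Psap, 3.02 in Lamp1, 3.6 in M6pr and 3.44 in Npc2, which fell. It was 3.85 in Fuca1 and 2.5 in Ids, which did not pass. Within the first 60 residues the highest mean of Ids was 3.2, while the others shown kept these values.

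A mean hydropathy of at least 2.0 over 8 residues was found within the first 30 residues of 37 of the 38 proteins. Man2b1, an alpha-mannosidase, was the exception at 0.75, and had a stretch of 2.71 within its first 60 residues. Among tested genes with a coding sequence, 30 of the 32 members with such a stretch were called lower (93.8%, 95% Wilson interval 79.9% to 98.3%). Of 1923 other genes with a stretch, 857 were called lower (44.6%), and of 8045 other genes without one, 911 (11.3%). A stretch of this kind can also belong to a membrane anchor or another targeting signal. It was not a criterion for the list, but the list is of proteins that enter the ER. Nearly all members have a stretch, so their share restates the calls of the list. Man2b1, without one, was also called lower. At a threshold of 2.4, 26 of 28 members with a stretch and 5 of 5 without one were called lower. Apart from Man2b1 the latter were Ctsh (2.21), Ctsk (2.24), Ctsa (2.3) and Ppt1 (2.38), which have a stretch at 2.0. The shares are descriptions of these libraries, and their intervals treat genes as independent.

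**Figure D1:**
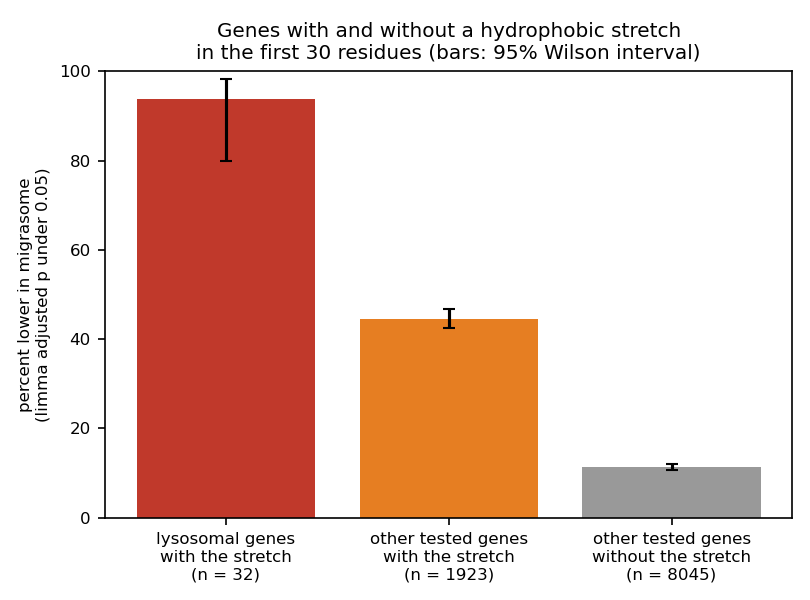
Bars give the percent of tested genes called lower in migrasome (limma adjusted p under 0.05), with 95% Wilson intervals, for lysosomal genes with a hydrophobic stretch in the first 30 residues (n = 32), other genes with one (n = 1923) and other genes without one (n = 8045). The bars stand at 93.8%, 44.6% and 11.3%.

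Cathepsins and the other proteases, which degrade proteins in the lysosome, fell in all 8 tested cases, with differences from -2.20 to -1.54 and a median of -1.95. Ctsl, a cysteine protease on chromosome 13 from 64359337 to 64370890 (minus strand), had values of 370.5 and 541 in migrasome replicates 1 and 2, against 1925 and 2207 in cytosol replicates 1 and 2. Its difference was -2.20 ± 0.23 (SE, limma adjusted p = 0.00054), and both migrasome libraries lay far below both cytosol libraries. Ctsb, another cysteine protease, stood at 369 and 465 in migrasome, against 1735 and 1528 in cytosol. Ctsz, a carboxypeptidase, stood at 273 and 271 in migrasome, against 1206 and 1130 in cytosol. Ctsd, the aspartic protease of the lysosome, stood at 238 and 318.5 in migrasome, against 1224 and 1023 in cytosol. For these 4 genes the groups did not overlap, and the fall was between 3.925-fold (Ctsb) and 4.6-fold (Ctsl). Both migrasome values were below both cytosol values in 36.3% of all tested genes as well.

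Ctsa, a serine carboxypeptidase that holds Neu1 and Glb1 in a complex, stood at 49.5 and 100 in migrasome, against 280.0 and 265 in cytosol. Both migrasome values were below both cytosol values (-1.94 ± 0.32, limma adjusted p = 0.0024). Tpp1, a tripeptidyl peptidase, stood at 52.3 and 88.2 in migrasome, against 224 and 178 in cytosol, and Ctsh, an aminopeptidase, at 32.5 and 35.5 in migrasome, against 107.1 and 107.0 in cytosol. Their differences were -1.54 and -1.63, and the groups did not overlap. Ctsk, a collagen-degrading cathepsin best known from osteoclasts, stood at 19.8 and 26.3 in migrasome, against 79.9 and 86.4 in cytosol, and also fell (-1.82 ± 0.32). Ctsc, Ctsf and Ctss were not tested, having at most 3 reads in any library. Ctss, a cathepsin of antigen-presenting cells, had 0 and 3 reads in migrasome and 2 and 1 in cytosol, which at this depth shows no direction.

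**Figure D2:**
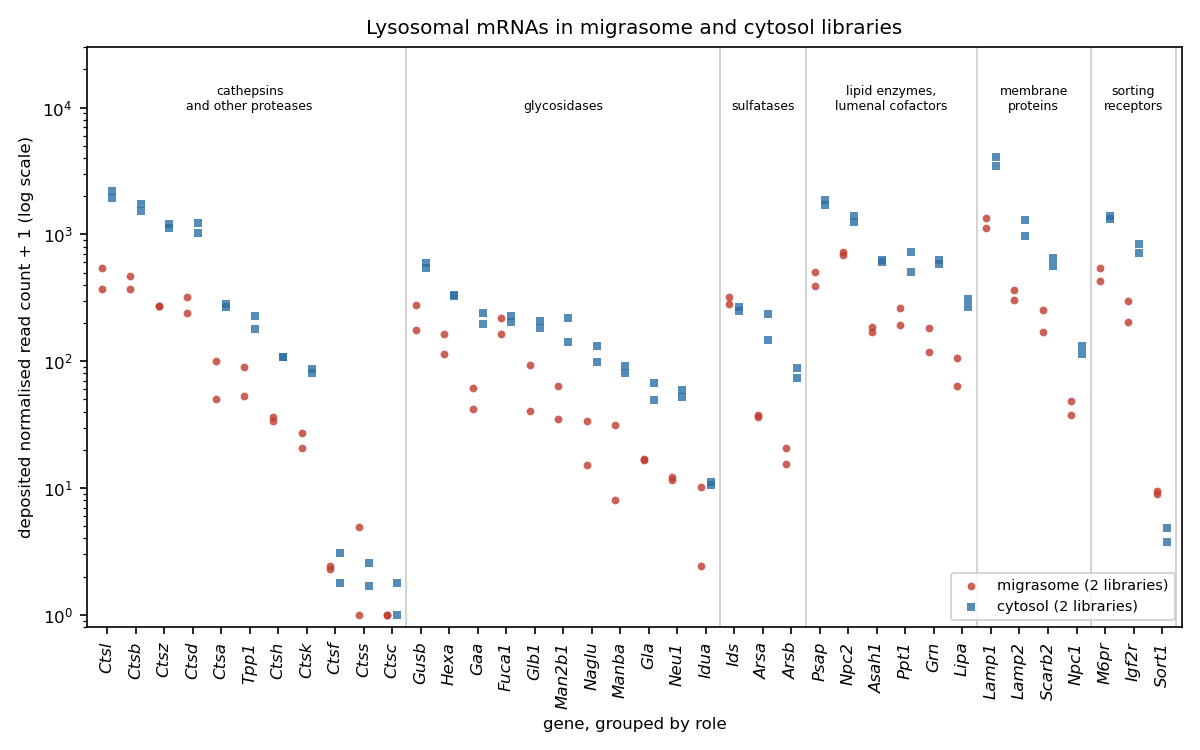
Points give the deposited normalised read count plus 1 on a log axis for each of the 38 genes, by role and in falling order of the cytosol mean, with migrasome libraries as circles left of cytosol libraries as squares. Circles lie below squares for 31 of the 33 tested genes, Ids has both circles above both squares, and the values of Fuca1 overlap.

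Glycosidases, which remove sugars from glycoproteins, glycolipids and glycosaminoglycans, fell in 9 of 10 tested cases (90%, against 17.7% of all tested genes). Their median was -1.84. Gusb, a beta-glucuronidase, stood at 174 and 278 in migrasome, against 546 and 592 in cytosol (-1.37 ± 0.25). Hexa, a subunit of beta-hexosaminidase, stood at 113 and 162 in migrasome, against 334 and 325 in cytosol (-1.28 ± 0.24). These were the smallest falls among the glycosidases. In both genes each migrasome value was below each cytosol value, as in 36.3% of all tested genes. Gaa, the acid alpha-glucosidase that degrades glycogen, stood at 41.0 and 60.5 in migrasome, against 238 and 195 in cytosol (-2.09 ± 0.28).

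Neu1, a sialidase, and Glb1, a beta-galactosidase, are the partners of Ctsa. Neu1 stood at 11.3 and 10.5 in migrasome, against 58.2 and 51.4 in cytosol, and Glb1 at 39.6 and 92.1 in migrasome, against 181.5 and 206 in cytosol. The differences of the 3 partners were -1.94 for Ctsa, -2.225 for Neu1 and -1.66 for Glb1, with 95% intervals that overlap. Naglu, which acts on heparan sulfate, stood at 14.1 and 32.9 in migrasome, against 132 and 98.1 in cytosol. Man2b1 stood at 33.9 and 63.2 in migrasome, against 139.6 and 219.5 in cytosol, and Gla, an alpha-galactosidase, at 15.6 and 15.8 in migrasome, against 65.9 and 48.0 in cytosol. The differences of these 3 were -2.34, -1.895 and -1.78. Manba, a beta-mannosidase, had the largest estimated fall of the 33 (-2.43 ± 0.55), but rested on 5 and 23 reads in migrasome, against 103 and 131 in cytosol. Without migrasome replicate 1 the difference of Manba was -1.46 and without replicate 2 -3.41, and that of Glb1 was -1.06 and -2.26. Without cytosol replicate 1 Gla no longer passed (difference -1.555, limma adjusted p = 0.093). Idua, an iduronidase, was not tested, at 1.41 and 9.21 in migrasome and 10.1 and 9.60 in cytosol.

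Fuca1, which removes fucose, on chromosome 4 from 135920735 to 135940311 (plus strand), was the glycosidase that did not pass. Its values were 218 and 162 in migrasome, against 204 and 227 in cytosol, so the groups overlapped. The difference was -0.20, with a 95% interval from -0.73 to 0.34, and it turned to 0.03 with quantile normalization and 0.02 without migrasome replicate 2. Its migrasome level of 57.95 per kilobase of exon was between those of Hexa (68.9) and Gusb (49.65), whereas its cytosol level of 65.8 was below theirs (165 and 125).

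Of the 3 sulfatases, which remove sulfate from lipids and glycosaminoglycans, Arsa and Arsb fell and Ids did not pass. Arsa, which acts on sulfatide, stood at 36.8 and 35.5 in migrasome, against 234 and 147 in cytosol (-2.33 ± 0.30). Arsb, which acts on dermatan sulfate, stood at 19.8 and 14.5 in migrasome, against 86.9 and 72.7 in cytosol (-2.17 ± 0.34). Ids, which removes sulfate from iduronate residues, on chromosome X from 70343069 to 70365084 (minus strand), stood at 318 and 279 in migrasome, against 265 and 245.5 in cytosol. Both migrasome values of Ids were the higher ones, but the difference of 0.22 did not pass (95% interval -0.26 to 0.70, limma adjusted p = 0.45), and it was -0.05 with every library scaled to the same total. The 95% intervals of Arsa and Arsb end at -1.66 and -1.42, below the lower end of that of Ids.

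The 6 genes for lipid enzymes and lumenal cofactors all fell. Psap, whose protein is cut into the saposins that present lipids to enzymes, lies on chromosome 10 from 60277627 to 60302597 (plus strand) and stood at 393 and 508 in migrasome, against 1848 and 1696 in cytosol (-1.98 ± 0.21). Grn, the progranulin gene, stood at 117 and 183 in migrasome, against 624.5 and 579.6 in cytosol (-2.03 ± 0.25). Asah1, the acid ceramidase, stood at 184 and 168.5 in migrasome, against 622 and 607 in cytosol (-1.80 ± 0.21). In all 3 the migrasome libraries were well below the cytosol libraries. Lipa, the acid lipase for cholesteryl esters, stood at 62.2 and 104 in migrasome, against 306 and 265 in cytosol (-1.81 ± 0.28). Ppt1, which removes palmitate from proteins, stood at 192 and 262 in migrasome, against 503.5 and 719 in cytosol (-1.42 ± 0.25).

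Npc2, a soluble protein that binds cholesterol in the lumen and hands it to Npc1, lies on chromosome 12 from 84754562 to 84773152 (minus strand). It stood at 687 and 719 in migrasome, against 1394 and 1257 in cytosol, the smallest fall of the 31 called genes (1.88-fold, -0.91 ± 0.20, limma adjusted p = 0.0090). Its 95% interval, -1.35 to -0.47, lies above the median of the 33 tested genes, as do only those of Ids and Fuca1. None of the 33 has an interval wholly below that median. Without cytosol replicate 1 Npc2 no longer passed (difference -0.84, limma adjusted p = 0.098). Npc1, the cholesterol transporter in the membrane, stood at 36.8 and 47.4 in migrasome, against 113 and 131 in cytosol (-1.52 ± 0.28).

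**Figure D3:**
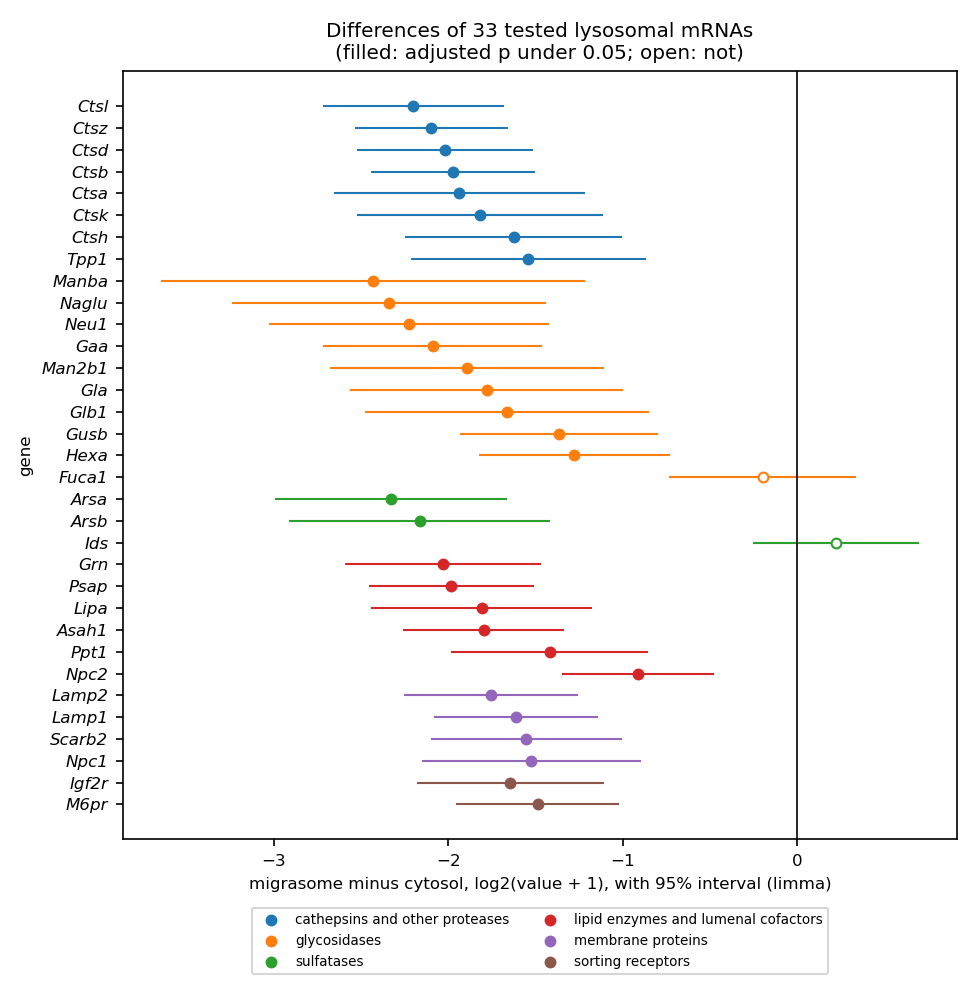
Points give the migrasome minus cytosol difference on the log2(value + 1) scale with its 95% interval (limma), for the 33 tested genes by role. Filled points passed an adjusted p of 0.05. The 31 filled points lie between -2.43 (Manba) and -0.91 (Npc2), and the open points are Fuca1 (-0.20, 0.03 with quantile normalization) and Ids (0.22, -0.05 with equal library totals).

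Genes for lysosomal membrane proteins fell in all 4 cases by similar amounts, from -1.76 to -1.52, where 17.7% of all tested genes were called lower. Lamp1, a heavily glycosylated protein that lines the lysosomal membrane, on chromosome 8 from 13159161 to 13175338 (plus strand), was the most abundant of the 38 genes per kilobase of exon, at 460 in migrasome and 1407 in cytosol. Its values were 1127 and 1333 in migrasome, against 4076 and 3449 in cytosol (-1.61 ± 0.21). Lamp2, its close relative, stood at 301 and 361 in migrasome, against 1285 and 968 in cytosol (-1.76 ± 0.22). Scarb2, also a receptor that carries glucocerebrosidase to the lysosome, stood at 168 and 251 in migrasome, against 652 and 562 in cytosol (-1.55 ± 0.25). For all of these the migrasome libraries lay below the cytosol libraries, as in 36.3% of all tested genes.

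Both mannose 6-phosphate receptors fell. M6pr, the cation-dependent receptor, on chromosome 6 from 122308720 to 122317680 (plus strand), stood at 428.5 and 546 in migrasome, against 1331 and 1385 in cytosol (-1.49 ± 0.21). Igf2r, the cation-independent receptor, which also binds the growth factor IGF2, stood at 202 and 296 in migrasome, against 831 and 708 in cytosol (-1.64 ± 0.24). Sort1, the gene for sortilin, was not tested, with 6 reads in each migrasome library and 5 and 4 in the cytosol libraries. Its values of 8.49 and 7.90 in migrasome and 3.88 and 2.74 in cytosol rest on too few reads to give a direction.

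As a share of each library's total, the 38 genes held 0.086% and 0.116% in migrasome, against 0.393% and 0.362% in cytosol. Cathepsins and other proteases held 0.0231% ± 0.0058 in migrasome and 0.113% ± 0.0040 in cytosol (SD, n = 2). Membrane proteins held 0.0257% ± 0.0051 in migrasome and 0.0957% ± 0.013 in cytosol. Migrasome replicate 2 was above replicate 1 for 26 of the 33 tested genes (78.8%), against 51.6% of all tested genes. The median difference was -1.49 without migrasome replicate 1 and -1.95 without replicate 2. With every library scaled to the same total the median was -2.07, where that of all tested genes was -0.27, and with quantile normalization -1.63, where that of all genes was 0.11. Those scalings gave 322 and 1196 genes called higher and 2522 and 1407 called lower over all genes, against 943 and 1919 as deposited, while 31 of the lysosomal genes were called lower under both.

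Across the 33 tested genes the difference had a Spearman rho of 0.31 with the mean log2 level and 0.056 with exon length. With protein length rho was -0.13, and with the highest mean hydropathy within the first 30 residues 0.0047. Pearson's r was 0.25, 0.011, -0.064 and 0.067 in the same order. These points share their 4 libraries, and the values are descriptions.

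Genes for other proteins of the lysosome and its supply were compared in lists of their own, beside the 17.7% of all tested genes called lower. Of 25 tested genes for other lumenal proteins 24 fell and all 25 differences were negative, with a median of -1.66. Among those with the highest values were the carboxypeptidase Scpep1 (-1.66 ± 0.24) and the protease Lgmn (-1.92 ± 0.31). Of 21 genes for other lysosomal membrane proteins 18 fell and all 21 differences were negative (median -1.73), such as Cd63 at 558 ± 58.3 in migrasome and 2138 ± 206 in cytosol (SD, n = 2), Laptm4a (-1.66) and Mfsd1 (-1.85). Hyal1 among the lumenal proteins and Cln3, Slc38a9 and Tmem192 among the membrane proteins, named after their values were seen, did not pass. Hyal1 (-2.42) was -3.78 without migrasome replicate 1 and -1.05 without replicate 2, and passed with a pseudocount of 5. Cln3 passed with equal library totals and without a variance trend. The difference of Slc38a9 (-0.88) was -0.30 without migrasome replicate 1 and -1.46 without replicate 2. The difference of Tmem192 (-0.20) turned to 0.04 without migrasome replicate 1 and 0.16 with quantile normalization. The list for hydrolase modification and transfer in the ER and Golgi also took in Sorcs2, whose part in these steps was not tested. Of its 7 tested genes 6 fell. They include Gnptab, which builds the mannose 6-phosphate tag (-1.36 ± 0.36), Sumf1, which activates sulfatases (-1.65 ± 0.22), and Cln8, which helps hydrolases leave the ER (-1.27 ± 0.25). The sortilin relative Sorcs2 stood at 83.9 ± 27.4 in migrasome, against 45.2 ± 17.3 in cytosol, and did not pass, but passed with quantile normalization. Its difference of 0.89 was 0.56 without migrasome replicate 1 and 1.23 without replicate 2. The call of Gnptab was lost with no filter and without a variance trend (limma adjusted p = 0.066 and 0.065), and leaving out migrasome replicate 1 or 2 gave -0.77 or -1.96.

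Genes for cytosolic proteins that act on the lysosome surface or sort hydrolases from outside the membrane gave other counts. Of 30 tested, 2 rose, 3 fell and 25 did not pass, with a median of 0.22, which was -0.053 with equal library totals. Without migrasome replicate 2 the list had 9 higher and 4 lower, and without cytosol replicate 2 it had 0 higher and 2 lower. The reported shares of 6.67% higher and 10% lower are below the 8.68% and 17.7% of all tested genes. Vps35 is the core of the retromer that returns sorting receptors to the Golgi. It stood at 2827 ± 882 in migrasome, against 1852 ± 594 in cytosol (SD, n = 2), and did not pass. Its difference of 0.61 was 0.29 without migrasome replicate 1 and 0.94 without replicate 2. Ap1s1, of the adaptor that packs receptors at the Golgi, stood at 969.7 ± 363 in migrasome, against 836 ± 189.5 in cytosol, and Arl8b, a GTPase that moves lysosomes, at 864 ± 162 in migrasome and 909 ± 19.4 in cytosol. Neither passed, and their differences (0.18 and -0.086) changed sign without some single libraries, that of Ap1s1 also with equal library totals. Ap3b1 (0.92 ± 0.20) and Ap3d1 (0.75 ± 0.21), subunits of the adaptor that carries membrane proteins to lysosomes, rose. The 3 that fell, named after their values were seen, were Flcn (-1.15 ± 0.22) and Fnip1 (-0.92 ± 0.22), partners in nutrient signalling at the lysosome, and Plekhm2 (-1.05 ± 0.27), which links lysosomes to kinesin. Ap3b1 no longer passed without cytosol replicate 2 (limma adjusted p = 0.081), Fnip1 without cytosol replicate 1 (0.15) and Plekhm2 without either (0.18 and 0.052) and with quantile normalization (0.075). Ap3d1 no longer passed without migrasome replicate 1 (0.057), without cytosol replicate 1 (0.092) or 2 (0.23), with equal library totals (0.10), with no filter (0.062) and without a variance trend (0.074).

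**Figure D4:**
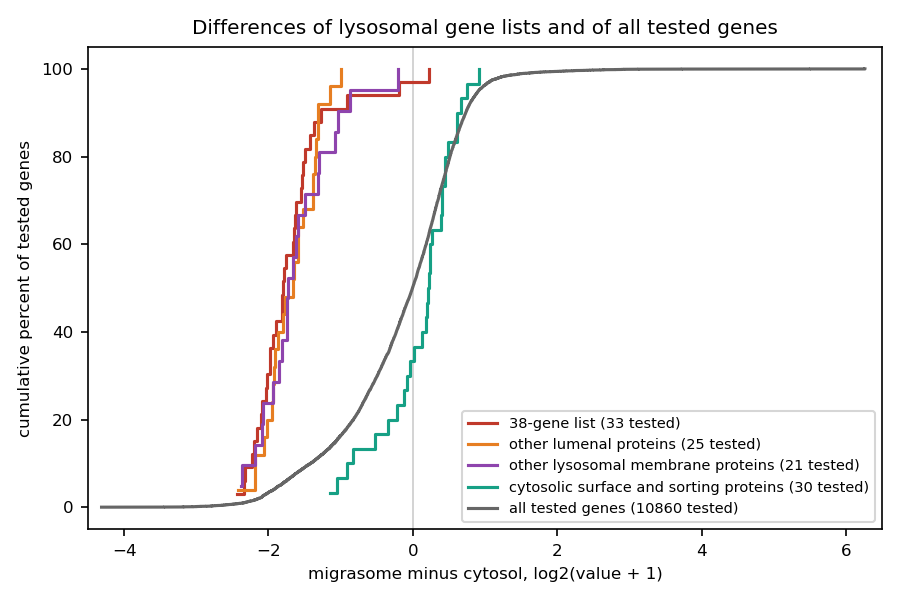
Curves give the cumulative percent of tested genes by migrasome minus cytosol difference on the log2(value + 1) scale, for the 38-gene list (33 tested), other lumenal proteins (25), other lysosomal membrane proteins (21), cytosolic surface and sorting proteins (30) and all tested genes (10860). The curves of the 3 lists of lumenal and membrane proteins have medians of -1.80, -1.66 and -1.73, whereas the medians of the cytosolic list and of all genes are 0.22 (-0.053 with equal library totals) and -0.0043.

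The inhibitors of cathepsins went different ways. Cst3, secreted cystatin C, averaged 283 ± 56.0 in migrasome, against 895 ± 142 in cytosol, and fell (-1.66 ± 0.23). Cst6, a secreted cystatin, stood at 194 ± 43.6 in migrasome, against 242 ± 14.8 in cytosol, and did not pass. Cstb, the cytosolic cystatin B, stood at 1048 ± 282 in migrasome, against 781 ± 109 in cytosol, and did not pass. Its difference of 0.40 was 0.68 without migrasome replicate 1, and at the lowest 0.13 over the alternatives. Serpinb6a, a cytosolic serpin, rose (6517 ± 1606 in migrasome and 2987 ± 232 in cytosol, difference 1.11 ± 0.24). Its call was lost with quantile normalization (limma adjusted p = 0.051) and without cytosol replicate 1 (0.076).

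Of the 5 genes for transcription factors that bind the E-box of lysosomal promoters, 0 passed limma at an adjusted p of 0.05, 1 (Usf1, lower) had an unadjusted p under 0.05, and 0 passed by edgeR or DESeq2. With equal library totals Usf1 was called lower (difference -0.81). Tfeb stood at 31.25 ± 4.2 in migrasome, against 39.7 ± 9.63 in cytosol, and Tfe3 stood at 102 ± 2.52 in migrasome, against 124 ± 2.57 in cytosol. Usf2 stood at 196 ± 51.7 in migrasome, against 172 ± 4.09 in cytosol, and Usf1 at 126 ± 9.31 in migrasome and 185 ± 15.4 in cytosol. The RefSeq promoter table (GRCm38.p6, from 250 bases before to 50 after the start) held promoters of 32 of the 38 genes. A gene with more than 1 promoter counted if any of them matched. The E-box CACGTG, searched on both strands, lay in a promoter of 11 of the 32 genes (34.4%), against 12.4% of tested genes with a promoter. Its longer form TCACGTGA, which contains it, lay in a promoter of 4 genes (12.5%, against 2.43%). Those with the longer form were Ctsa, Ctsd, Gla and Igf2r, which all fell, as did 31 of the 33 tested genes of the list. Whether the motif goes with the fall was not tested. A further form, which extends TCACGTGA at both ends, lay in a promoter of 1 of the 32 genes (3.12%, against 0.928% of tested genes with a promoter). The promoter of Ctsd, at chr7:142387778-142388077 on the minus strand, is given as the example with the highest level per kilobase of exon, with the longer form in capitals.
Ctsd: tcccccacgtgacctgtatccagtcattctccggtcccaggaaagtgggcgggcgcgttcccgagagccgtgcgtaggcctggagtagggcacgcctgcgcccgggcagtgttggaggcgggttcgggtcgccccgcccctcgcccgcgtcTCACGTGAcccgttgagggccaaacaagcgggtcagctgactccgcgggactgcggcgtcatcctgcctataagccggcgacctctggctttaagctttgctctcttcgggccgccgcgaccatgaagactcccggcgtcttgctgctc
A match is a description of these letters and not evidence of binding.

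**Figure D5:**
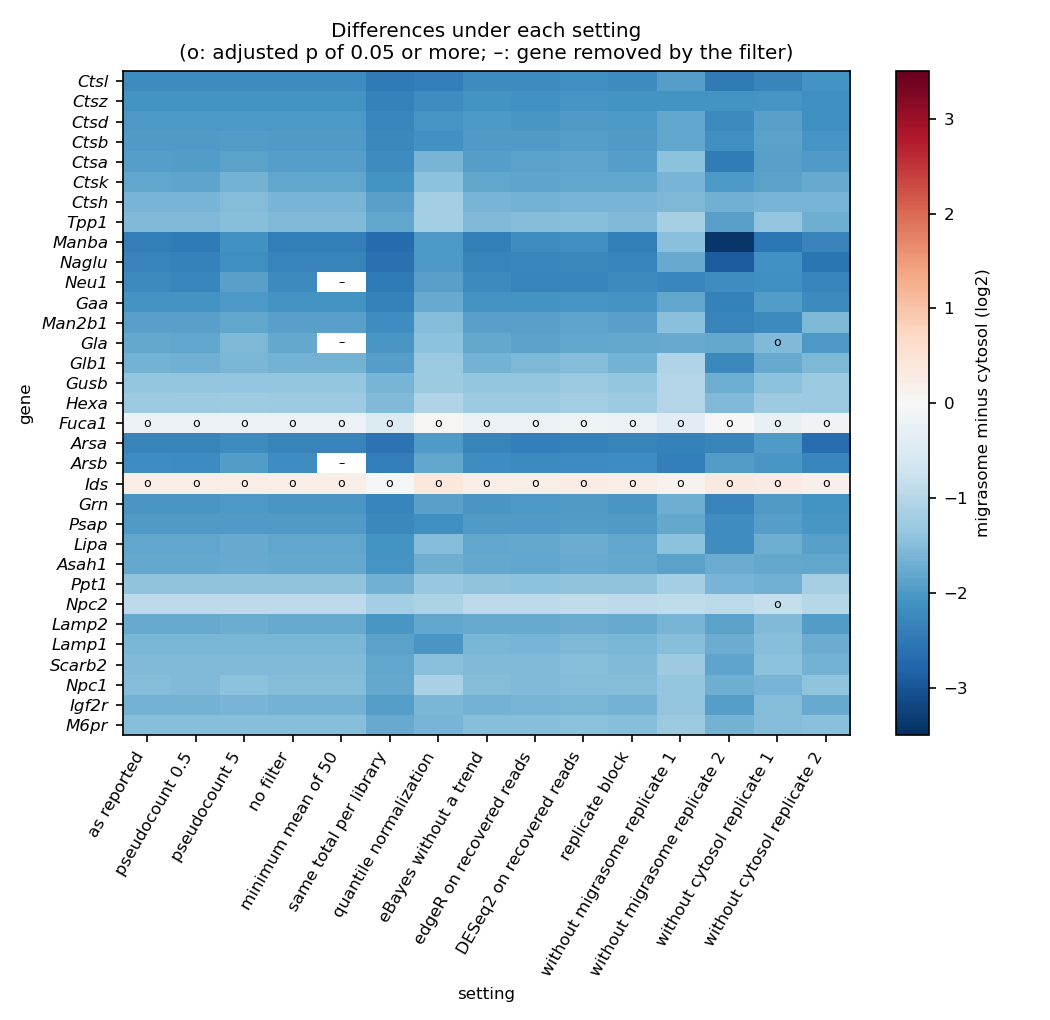
Colours give the migrasome minus cytosol difference of each tested gene (rows) under the reported setting and 14 alternatives (columns), with o where the adjusted p was 0.05 or more and a dash where the filter removed the gene. Blue fills the rows of the 31 called genes, o stands in every column for Fuca1 and Ids, whose direction turned in some columns, and in 1 column each for Gla and Npc2.

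Myeloid cells and osteoclasts are rich in cathepsins, and the part of such cells in the result was not tested. The summed value of 8 macrophage markers was 15.6 and 27.6 in migrasome, against 31.8 and 43.9 in cytosol. Most of it came from the 2 that could be tested, Cd14, with 0 and 10 reads in migrasome and 22 and 32 in cytosol, and Lyz2, with 7 and 5 reads in migrasome and 15 and 25 in cytosol. Neither passed limma (adjusted p = 0.097 and 0.28). Csf1r had 2 to 5 reads in a library, Adgre1, Itgam, Mrc1 and Ptprc had at most 2, and Fcgr1 was at 0 in all 4. Of 6 osteoclast markers Calcr, Mmp9, Oscar and Dcstamp were at 0 in all 4 libraries, Ocstamp had 1 and 3 reads in migrasome and 2 and 7 in cytosol, and Itgb3 had 0 and 2 reads in both groups. Epithelial and endothelial markers had at most 2 reads in any library. Of 9 fibroblast markers 7 were tested, of which 4 fell (57.1%, against 17.7% of all tested genes). These were Col1a1 (-1.97), Col1a2 (-2.20), Pdgfra (-1.635) and Pdgfrb (-2.05), none of them a lysosomal gene. Vim rose, and Thy1 and S100a4 did not pass. Dcn had at most 3 reads in a library and Lum was at 0, while the labels name no cell type.

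The exons of 15 of the 38 genes overlap those of another annotated gene, and no source used here states whether the authors counted by strand. The largest overlaps with a single gene model were those of Ctsd (34.4% of the exon length, same strand), Arsb (32.3%, opposite strand) and Ctsl (26.8%, opposite strand). Arsb also shares 7.67% with another gene model on the opposite strand, and Ctsl 6.09% with a pseudogene on the same strand. Reads from a stretch shared on the same strand cannot be told apart, nor can those from opposite strands if strand was not used, so these values are uncertain to that extent.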

How the data were processed

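Total RNA of 2 migrasome and 2 cytosol libraries was sequenced. Per the submitters' processing notes the tools were STAR, HTSeq, DESeq, FastQC, Trimmomatic and cutadapt, with the build GRCm38 and no role stated for each. No source used here gives versions or the strand setting. The deposited values (signal) are gene counts divided by a size factor per library, per the file's values: divided by the value of 1 read, 100% came out whole (tolerance 0.001). The 2 replicates of each group differed by more than sampling noise and were kept as 2 samples.

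Genes that reached 10 in 2 or more libraries were tested with limma 3.58.1 (R 4.3.3) on log2(value + 1) with a variance trend, without a block, and p-values were adjusted by Benjamini-Hochberg over all 10860. On the recovered reads edgeR 4.0.16 called 3135 genes and DESeq2 1.42.0 called 2739. The limma code was tested on simulated data. Other alternatives were the pseudocount, filters, equal library totals, quantile normalization, the variance trend, a replicate block and each library left out. Intervals cover counting error or the spread of these libraries only.

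The 38 genes and all lists were chosen with earlier results of these data known. All 38 are named, and of each other list the 3 with the highest mean and any gene called against the list's direction. A gene that this rule names is not reported here. Sorcs2, Hyal1, Cln3, Slc38a9, Tmem192, Flcn, Fnip1, Plekhm2, Tfeb, Mitf and Cst6 were named after their values were seen. Coding sequences of GENCODE M21 were translated in place of a protein table, and promoters came from RefSeq.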

Additional observations from a re-analysis of the deposited data

How the results depend on the processing

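The 31 genes called lower kept their direction under all alternatives in which they were tested. They also kept their call in those that used all 4 libraries. Gla and Npc2 lost their call without cytosol replicate 1, which left 1 library in that group. The number of the 38 genes called lower was 28 of 30 tested with a minimum mean of 50. Their median difference ran from -2.07 to -1.49 over all alternatives. The count of all tested genes called was 2862, against 1741 with no filter and 1414 to 4885 with a library left out. Migrasome replicate 1 and cytosol replicate 1 share only a number in the labels, and their deviations correlated at r = 0.23 across 10860 genes. With the replicate block 4423 genes were called, and 31 of the 38 were again lower. Under it Hyal1, Cln3, Slc38a9, Sorcs2 and Vps35 passed, and the cytosolic list had 5 higher and 4 lower. The share called lower among other genes with an N-terminal stretch was 32.7% at a threshold of 1.6 and 56.4% at 2.4.

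Directions turned for differences that had not passed. With quantile normalization Fuca1 was 0.030, Tmem192 0.16, Tfe3 0.066, Tfeb 0.064 and Mitf 0.10. With equal library totals Ids was -0.049, Ap1s1 -0.091 and Usf2 -0.11. With a library left out Fuca1 ran from -0.41 to 0.017, Tmem192 from -0.45 to 0.038, Ap1s1 from -0.21 to 0.57, Arl8b from -0.28 to 0.11 and Usf2 from -0.11 to 0.44. The cause was not tested. Depth limits Ctsc, Ctsf, Ctss, Idua and Sort1, which were not tested, and genes with few migrasome reads such as Manba and Neu1.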
